A study of Mus musculus with 126 samples.

Results

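The cytochrome P450 genes of the mouse colon were measured around the clock in 3 genotypes and under 4 feeding regimens that crossed dietary salt with mealtime. A gene was taken as a member if its symbol had the form of a numbered P450 gene (Cyp, family number, subfamily letter, gene number) and its mean level reached 0.5 FPKM in at least 1 of the 7 conditions. FPKM are fragments mapped to a gene, divided by its transcript length and by the mapped fragments of the library, and were here also divided by a scale factor for each library. Of 24883 rows in the tables, 94 had such a symbol and 33 met the level, from 6 families and 14 subfamilies. Of these, 32 entered the tests, which required the same mean after rescaling, and Cyp2d11, at the edge of the rule, did not. Bmal1 knock out mice lacked the clock activator Bmal1 in the gut, MR knock out mice lacked the mineralocorticoid receptor (MR) in the gut, and both were 8 to 12 weeks old and ate normal chow ad libitum. They were set against wild-type mice on the same chow, whose age the labels do not give, and the sources used here name no Cre driver. The feeding groups were male C57BL/6 mice aged 8 weeks under 12 h of light and 12 h of dark, given high-salt or low-salt food by day only or at night only. Each condition had 18 libraries of colon RNA, 3 every 4 h from ZT0 to ZT20, where ZT (zeitgeber time) counts the hours from lights on. The replicates are separate libraries, and the labels do not say for every group that each came from its own animal, so the p-values measure the spread between these libraries.

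Cytochrome P450 enzymes are heme proteins of the endoplasmic reticulum or mitochondria that insert an oxygen atom into drugs, fatty acids, sterols and bile acid precursors, with electrons passed on by NADPH P450 oxidoreductase or by ferredoxin. In the intestine they meet dietary compounds and drugs before the liver does, and they oxidise arachidonic and linoleic acid to local lipid mediators. Many P450 genes are known targets of nuclear receptors and of the aryl hydrocarbon receptor, and in liver a number of them follow the clock through PAR bZIP factors such as Dbp.

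The 7 Cyp2c members lie together on chromosome 19 and did not all move together, so the promoters of 2 pairs of them are given here. On build GRCm38 the plus strand carries Cyp2c55 (chr19:39007019-39042693), Cyp2c65 (chr19:39061015-39093944) and Cyp2c66 (chr19:39113898-39187072). The minus strand carries Cyp2c67 (chr19:39608842-39649051), Cyp2c68 (chr19:39688834-39741054), Cyp2c40 (chr19:39767071-39812814) and Cyp2c69 (chr19:39842814-39886799). The RefSeq windows (GRCm38.p6) span 300 bases each, from upstream of the gene's start to shortly after it, and are printed 5′ to 3′ on the gene's own strand. They are chr19:39741052-39741351 (minus) for Cyp2c68, chr19:39886720-39887019 (minus) for Cyp2c69, chr19:39060756-39061055 (plus) for Cyp2c65 and chr19:39113648-39113947 (plus) for Cyp2c66. Capitals mark the bases of a window that have no identical base of its pair partner in the alignment of the pair.
Cyp2c68: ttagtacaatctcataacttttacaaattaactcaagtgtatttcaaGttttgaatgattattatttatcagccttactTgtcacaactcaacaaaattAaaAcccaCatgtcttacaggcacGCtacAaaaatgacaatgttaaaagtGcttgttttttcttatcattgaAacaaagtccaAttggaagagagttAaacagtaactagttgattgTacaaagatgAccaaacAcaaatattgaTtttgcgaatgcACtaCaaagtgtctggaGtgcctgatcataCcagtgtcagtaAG
Cyp2c69: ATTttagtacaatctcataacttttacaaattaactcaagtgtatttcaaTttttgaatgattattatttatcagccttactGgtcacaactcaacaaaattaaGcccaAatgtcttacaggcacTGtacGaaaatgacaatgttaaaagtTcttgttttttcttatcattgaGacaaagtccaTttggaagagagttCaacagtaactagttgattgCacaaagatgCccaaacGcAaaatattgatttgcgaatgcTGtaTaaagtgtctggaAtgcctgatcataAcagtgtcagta
Cyp2c65: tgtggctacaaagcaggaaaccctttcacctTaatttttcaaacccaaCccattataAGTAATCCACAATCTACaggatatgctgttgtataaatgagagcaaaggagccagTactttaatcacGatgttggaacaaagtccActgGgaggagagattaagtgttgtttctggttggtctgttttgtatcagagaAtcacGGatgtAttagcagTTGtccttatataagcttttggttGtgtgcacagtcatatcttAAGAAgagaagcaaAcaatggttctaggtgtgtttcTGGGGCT
Cyp2c66: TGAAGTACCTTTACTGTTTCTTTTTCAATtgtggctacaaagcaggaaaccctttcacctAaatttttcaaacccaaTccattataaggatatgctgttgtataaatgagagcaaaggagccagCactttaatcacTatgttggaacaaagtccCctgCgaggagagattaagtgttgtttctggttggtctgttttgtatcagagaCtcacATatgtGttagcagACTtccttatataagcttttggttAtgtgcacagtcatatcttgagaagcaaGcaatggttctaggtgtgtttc
Of 300 bases, 23 were unlike the partner in Cyp2c68 and Cyp2c69, and 44 in Cyp2c65 and Cyp2c66. The identity was 92.3% for Cyp2c68 and Cyp2c69 and 85.3% for Cyp2c65 and Cyp2c66, against 54.3% for Cyp2c68 and Cyp2c65. The transcripts were compared among the members only, and genes outside the rule were not searched. Of the words of 50 bases in the longest transcript, 72.1% were shared with another member for Cyp2c40, 54.7% for Cyp2c69, 52.8% for Cyp2c67 and 43.3% for Cyp2c68. Reads of these 4 genes could be split among them by the authors' counting, and their values are uncertain for that reason. The share was 20.2% for Cyp2c65, 20.4% for Cyp2c66 and 0 for Cyp2c55. Cyp2d10 (34.6%), Cyp2d9 (25.6%), Cyp4f16 (26.5%) and Cyp4f37 (21.7%) also share words with other members.

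Promoter windows were found for 27 members, and both strands were searched for 4 motifs, none of which contains another. The E-box CACGTG, the letters bound by Bmal1 and its partner Clock, was present in the windows of Cyp2j6 and Cyp4v3 and in 7.15% of all 32851 windows. ACANNNTGT, which allows the paired half-sites of steroid receptors such as MR, was present in Cyp2c68, Cyp2d10 and Cyp4f13 and in 6.85% of all windows. The nuclear receptor half-site AGGTCA was present in Cyp2f2 (16.3% of all windows), and the D-box TTATGTAA in none of the 27 (0.938% of all windows). A match describes the letters only.

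Cyp2c55, which oxidises arachidonic acid to hydroxy fatty acids and is known for its expression in the mouse colon, was the most abundant member in every condition. Its mean was 319 ± 162 FPKM in Bmal1 knock out mice, 629 ± 219.6 FPKM in MR knock out mice and 576 ± 146 FPKM in wild type (SD, n = 18 each). Bmal1 knock out mice had 50.9% of the summed member FPKM in this gene, MR knock out mice 55.02% and wild type 56.1%. In the feeding groups the mean was 127 FPKM with high salt by day, 151 with high salt at night, 94.5 with low salt by day and 127 with low salt at night, and the share was 17.8 to 24.7%. The ad libitum and the feeding groups differ in diet, feeding schedule and table, so these levels are given side by side without a test.

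Below Cyp2c55, 15 members had a highest condition mean between 10 and 100 FPKM, 11 between 1 and 10, and 6 under 1. In wild type the next levels were Cyp2c65 (68.3), Cyp2d34 (49.6), Cyp2c68 (39.4), Cyp4f14 (37.1), Cyp2s1 (29.97) and Cyp3a13 (29.6 FPKM). Cyp4f14 is a fatty acid and leukotriene omega-hydroxylase, Cyp2s1 an epithelial P450 inducible through the aryl hydrocarbon receptor, and Cyp3a13 an intestinal member of the main drug-metabolising subfamily. The sterol enzymes were lower: the mitochondrial sterol hydroxylase Cyp27a1 averaged 6.37 FPKM and the oxysterol hydroxylase Cyp39a1 6.06 FPKM in wild type. Cyp2r1, a vitamin D hydroxylase of the liver, averaged 0.672 FPKM.

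Several textbook P450 genes did not meet the level. The values in this paragraph are FPKM as deposited, before the scale factors were applied. Over the 126 libraries the highest single value was 0.0277 FPKM for Cyp1a1, 0.00798 for Cyp1b1, 0.314 for Cyp2b10, 0.272 for Cyp2e1, 0.234 for Cyp3a11 and 0.346 for the vitamin D catabolising Cyp24a1. These are the classical inducible or hepatic genes, and all stayed near 0 here. Just inside the rule, the highest condition mean was 0.507 FPKM for Cyp2d11, 0.632 for Cyp2j9, 0.662 for Cyp4f37, 0.795 for Cyp2r1 and 0.855 for Cyp2c67. Just outside it was 0.401 for Cyp4f15, 0.283 for Cyp11a1, 0.277 for Cyp3a25 and 0.261 for Cyp2u1.

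**Figure D1:**
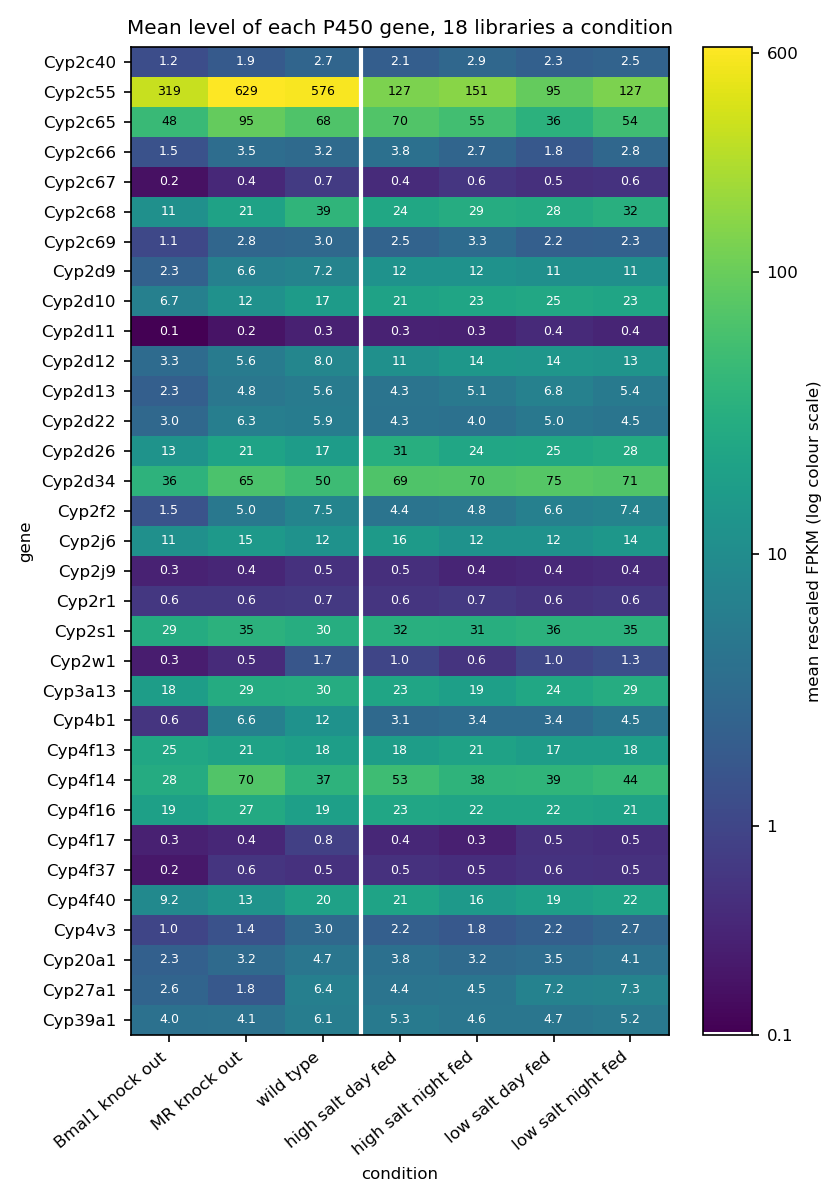
Mean level of each of the 33 P450 genes (rescaled FPKM, log colour scale) in each of the 7 conditions, 18 libraries a condition. Cyp2c55 stands highest in every condition, and Cyp4b1 is far lower in Bmal1 knock out (0.601) than in wild type (12.2).

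In wild-type colon 15 of the 32 tested members had a rhythm, against 17.8% of all tested genes, and 12 of the 15 peaked between ZT6 and ZT12. The peak times of all rhythmic genes were not tabulated, so this window is not read as particular to the members. A rhythm is a 24 h cosine through the means of the 6 times, with the amplitude from mean to peak on the log2 scale, and limma's F test was used for it. Cyp3a13 had the smallest adjusted p. It stood at 48.8, 46.9 and 47.3 FPKM at ZT12 and at 16.5, 19.8 and 23.6 FPKM at ZT20. The ZT12 libraries were the highest 3 of the day, with no overlap with any other time, and the amplitude was 0.54 ± 0.07 with a peak at ZT10.0 (adjusted p = 1.45e-06, limma).

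Cyp2d9, of the subfamily of human debrisoquine hydroxylase, had 16.1, 10.8 and 10.6 FPKM at ZT12, against 3.85, 4.13 and 3.25 FPKM at ZT0, an amplitude of 0.90 ± 0.17. Cyp2s1 had 42.7, 41.9 and 34.5 FPKM at ZT8, against 20.0, 22.0 and 21.4 FPKM at ZT16, an amplitude of 0.42 ± 0.09 and a peak at ZT6.77. The times did not overlap in either gene. The remaining named amplitudes were 0.63 for Cyp2c69 (peak ZT10.3), 0.38 for Cyp2j9 (ZT5.44), of the epoxygenase subfamily of arachidonic acid, and 0.37 for Cyp4v3 (ZT7.00), a fatty acid omega-hydroxylase. The count rests on the scaling of libraries: with FPKM as deposited the 3 members that passed were Cyp2c69, Cyp2d9 and Cyp2j9, while the limma adjusted p was 0.142 for Cyp3a13, 0.332 for Cyp2s1 and 0.354 for Cyp4v3.

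In Bmal1 knock out 27 of the 32 members were lower than in wild type, against 49.2% of all tested genes, and 1 was higher, against 30.2% (79.4% in either direction). The median log2 difference was -0.892 over the members and -0.135 over all tested genes. All 7 tested Cyp2c genes and all 7 tested Cyp2d genes fell, and of the 6 Cyp4f genes 4 fell and 1, Cyp4f13, rose. Cyp4f13 is named after its values were seen: it averaged 24.5 FPKM in Bmal1 knock out and 18.3 in wild type, and with FPKM as deposited, where the median over all genes moved by -0.71, all 33 members were lower. Level differences are means over the 6 times on the scale log2(FPKM + 0.5), which understates the change of low genes.

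Cyp4b1, which oxidises fatty acids and aromatic amines, had the smallest adjusted p. The lowest, median and highest of 18 libraries were 0.122, 0.402 and 1.55 FPKM in Bmal1 knock out, against 3.56, 12.3 and 22.6 FPKM in wild type. Every knock out library lay below every wild-type library, with a log2 difference of -3.49 ± 0.23 (adjusted p = 1.57e-15, limma). Cyp2f2, known for naphthalene oxidation in the mouse lung, had 0.137, 1.51 and 3.06 FPKM in Bmal1 knock out, against 4.95, 7.42 and 9.50 FPKM in wild type, again without overlap (-2.09 ± 0.17, adjusted p = 2.33e-13, limma). The fatty acid hydroxylase Cyp4v3 had 0.288, 1.03 and 1.63 FPKM in Bmal1 knock out, against 1.75, 3.00 and 4.49 FPKM in wild type (-1.24 ± 0.09). These groups did not overlap either.

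Among the Cyp2c genes of the minus strand, Cyp2c68 had 6.99, 10.5 and 18.6 FPKM in Bmal1 knock out, against 23.5, 39.1 and 59.3 FPKM in wild type (-1.74 ± 0.16, adjusted p = 1.31e-11, limma). Its neighbour Cyp2c67 had 0.0692, 0.194 and 0.343 FPKM in Bmal1 knock out, against 0.459, 0.709 and 1.13 FPKM in wild type (-0.81 ± 0.08). Neither gene overlapped between the genotypes. Cyp2c55 on the plus strand had 166, 257 and 729 FPKM in Bmal1 knock out, against 236, 593 and 880.3 FPKM in wild type. Here the groups overlapped widely, and the difference was -0.95 ± 0.17 (adjusted p = 5.25e-06, limma).

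The mitochondrial sterol hydroxylase Cyp27a1 had 1.57, 2.52 and 4.04 FPKM in Bmal1 knock out, against 4.74, 6.21 and 9.65 FPKM in wild type, with no overlap (-1.16 ± 0.12, adjusted p = 4.92e-11, limma). Cyp3a13 had 9.87, 18.3 and 27.3 FPKM in Bmal1 knock out, against 16.5, 27.2 and 48.8 FPKM in wild type (-0.70 ± 0.07), and Cyp2d22 differed by -0.90 ± 0.09. Both overlapped between the genotypes. Changes were smaller in other abundant genes. Cyp4f14 differed by -0.45 ± 0.09, a call that was lost with a score of how each library's levels lean with transcript length as a covariate (-0.15, adjusted p = 0.354, limma). Cyp2s1 averaged 28.7 FPKM in Bmal1 knock out and 29.97 FPKM in wild type (-0.05 ± 0.09, adjusted p = 0.611, limma). Its sign turned with the length score (0.0117).

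**Figure D2:**
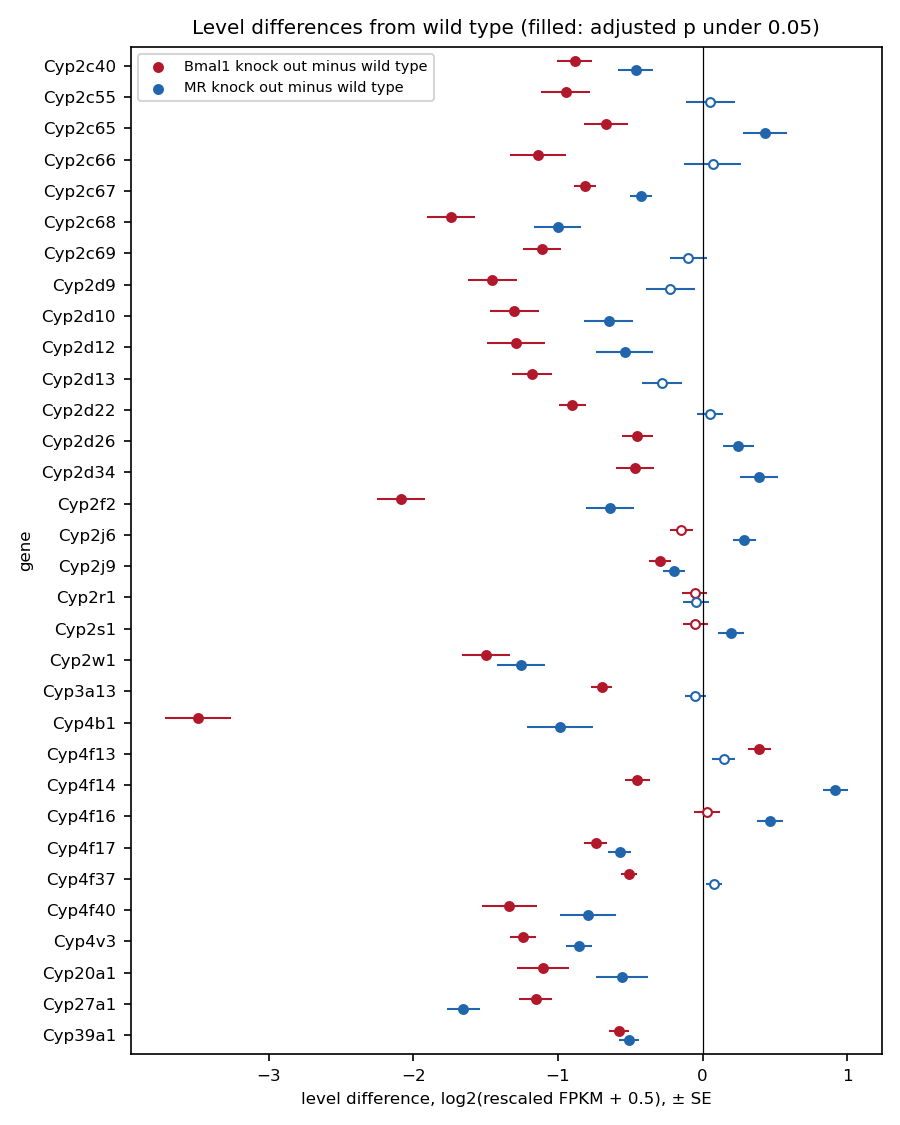
Log2 level difference of each of the 32 tested P450 genes from wild type (points, with standard errors) in Bmal1 knock out and MR knock out, 18 libraries each. Most points for Bmal1 knock out lie below 0, down to -3.49 for Cyp4b1, and those for MR knock out lie on both sides, up to 0.92 for Cyp4f14.

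The Bmal1 knock out libraries stood apart in ways that move with these values. Their scale factors had a median of 0.584, against 1.22 in wild type, and 9 of the 18 were under 0.6. Without these 9 libraries 27 members were called, 26 of them lower, and with the length score 22 were called, all lower, against 32.8% of all genes. The score averaged -0.0754 ± 0.0935 in Bmal1 knock out and 0.115 ± 0.0697 in wild type (SD, n = 18 each). The summed level of 5 surface colonocyte markers was 701 to 1962 FPKM in Bmal1 knock out, against 1279 to 2619 FPKM in wild type, and 4 of the 5 fell. The summed level of 4 Hox genes of the distal colon was 57.8 to 120.4 FPKM in Bmal1 knock out, against 115 to 199 FPKM in wild type, and all 4 fell. Of all tested genes 49.2% were lower in Bmal1 knock out. The upper intestine markers summed to 443 to 900.4 FPKM in Bmal1 knock out, against 191 to 544 FPKM in wild type. Their part in the P450 differences was not tested, and in bulk RNA fewer cells of a type and less RNA per cell cannot be told apart.

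In Bmal1 knock out 19 members were called rhythmic, against 55.1% of all tested genes, a share near that background. When those 9 libraries were dropped, all 3 at ZT12 and all 3 at ZT16 among them, 2 were called, Cyp4f14 and Cyp3a13. The share of all tested genes called in that fit is not given here, so the fall is not read as particular to the members. The Bmal1 knock out values that follow are from all 18 libraries, and replicates 1 and 3 at ZT20 were among the 9 dropped. Cyp3a13 had 21.2, 27.3 and 20.95 FPKM at ZT8 and 10.8, 10.8 and 11.7 FPKM at ZT20, with no overlap between those times (amplitude 0.47 ± 0.07, peak ZT8.42). Cyp4f14 had 55.8, 40.9 and 39.5 FPKM at ZT4 and 11.8, 16.2 and 20.7 FPKM at ZT20 (amplitude 0.63 ± 0.09, peak ZT5.27). In wild type Cyp4f14 was highest at ZT12, with 53.7, 54.7 and 63.4 FPKM.

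The rhythm differed from wild type in 10 of the 32 members, against 29.4% of all tested genes, a share near that background. Cyp4f14 had the smallest adjusted p, with a difference of 0.79 ± 0.12 (adjusted p = 8.75e-05, limma), and was the 1 call left when the libraries of low scale factor were dropped, a fit with cosine and sine terms that gave 7 calls over all libraries. The others named were Cyp4f13 (0.52), Cyp2c40 (0.67), Cyp2c65 (0.83) and Cyp4f40 (1.01). The count was 6 without the second replicate of Bmal1 knock out at ZT8.

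In MR knock out the members moved in both directions: 15 were lower than in wild type, against 41.5% of all tested genes, and 7 were higher, against 24.1%. The shares of called members, 22 of 32 against 65.6% in either direction, lie near the background. With FPKM as deposited 2 were higher and 18 lower. Both knock outs were set against the same wild-type libraries, so the 2 sets of values are given side by side.

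Cyp27a1 had the smallest adjusted p in MR knock out. The lowest, median and highest of 18 libraries were 0.610, 1.76 and 3.22 FPKM in MR knock out, against 4.74, 6.21 and 9.65 FPKM in wild type, with no overlap (-1.65 ± 0.12, adjusted p = 1.21e-14, limma). Cyp4f14 went the other way, with 50.01, 65.2 and 104.5 FPKM in MR knock out, against 26.9, 34.1 and 63.4 FPKM in wild type (0.92 ± 0.09, adjusted p = 3.44e-11, limma). It was higher at all 6 times, though the ranges overlapped. The Cyp4f subfamily was split, with 2 genes higher and 2 lower, and Cyp4f17 was among the lower ones (-0.57 ± 0.08).

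Cyp4v3 had 0.727, 1.35 and 2.51 FPKM in MR knock out, against 1.75, 3.00 and 4.49 FPKM in wild type (-0.85 ± 0.09). Cyp2w1, a P450 of the fetal gut and of colon tumours, had 0.0337, 0.227 and 1.69 FPKM in MR knock out, against 0.138, 1.79 and 2.43 FPKM in wild type (-1.25 ± 0.17). Both overlapped between genotypes while their medians lay far apart. Cyp39a1 differed by -0.51 ± 0.07 and Cyp4b1, with a mean of 6.56 FPKM in MR knock out and 12.2 FPKM in wild type, by -0.99 ± 0.23 (adjusted p = 3.7e-04, limma).

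The Cyp2c genes of chromosome 19 did not move together in MR knock out. Of the 7 tested Cyp2c genes 3 were called lower and 1 higher. On the minus strand Cyp2c68 had 7.25, 19.9 and 36.6 FPKM in MR knock out, against 23.5, 39.1 and 59.3 FPKM in wild type (-1.001 ± 0.16, adjusted p = 3.51e-06, limma), and Cyp2c67 differed by -0.43 ± 0.08. Cyp2c69, on the same strand, averaged 2.815 FPKM in MR knock out and 2.965 FPKM in wild type, so the genes did not divide cleanly by strand. On the plus strand Cyp2c65 averaged 95.0 FPKM in MR knock out and 68.3 FPKM in wild type and was called higher. Cyp2c55 had 107, 632 and 1073 FPKM in MR knock out, against 236, 593 and 880.3 FPKM in wild type, and its difference of 0.05 ± 0.17 did not pass (adjusted p = 0.796, limma). The sign of that difference turned without the first or second MR knock out replicate at ZT0 (-0.0198 and -0.0314) or the first wild-type replicate at ZT16 (-0.0174). Cyp3a13 averaged 28.7 FPKM in MR knock out and 29.6 FPKM in wild type (-0.05 ± 0.07, adjusted p = 0.544, limma), and its sign turned with the length score (0.0086).

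The markers moved here as well. The summed surface colonocyte markers reached 1781 to 4597 FPKM in MR knock out, against 1279 to 2619 FPKM in wild type, with 3 of 5 higher and 1 lower. The summed distal Hox genes reached 29.0 to 159 FPKM in MR knock out, against 115 to 199 FPKM in wild type, with 4 of 4 lower. Of all tested genes 24.1% were higher and 41.5% lower in MR knock out. The upper intestine markers summed to 181 to 1664 FPKM in MR knock out. Their part in the P450 differences was not tested. No MR knock out library had a scale factor under 0.6.

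In MR knock out 4 members were rhythmic, against 21.8% of all tested genes: Cyp3a13 (0.44 ± 0.07, peak ZT8.72), Cyp2s1 (0.37, ZT9.13), Cyp2d26 (0.44, ZT10.5) and Cyp4f13 (0.33, ZT7.11). The Cyp4f13 call was lost without the first MR knock out replicate at ZT8 (adjusted p = 0.0548, limma). The count was 7 without the first MR knock out replicate at ZT20. With FPKM as deposited none passed, with limma adjusted p of 0.198 for Cyp3a13, 0.285 for Cyp2s1, 0.111 for Cyp2d26 and 0.477 for Cyp4f13. All 4 were rhythmic in wild type too, with peaks -1.3 to 2.36 h apart (MR knock out minus wild type). No member passed for a rhythm difference from wild type, against 0.828% of all tested genes, while 4 had an unadjusted p under 0.05 in limma, and 1 passed without the first MR knock out replicate at ZT12.

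Under low salt no member passed for a level difference between day-fed and night-fed mice, against 3.22% of all tested genes (0.941% higher and 2.28% lower). In limma 6 members had an unadjusted p under 0.05, the smallest adjusted p was 0.0946, and 1 member passed without the second low-salt night-fed replicate at ZT0 or without replicate 3 at ZT8. The timing did differ: the rhythm of 17 of the 32 members differed between day and night feeding, against 37% of all tested genes. In low-salt day-fed mice 5 members were rhythmic, against 40.6% of all tested genes, and in low-salt night-fed mice 16 were, against 21.9%. Whether the difference between these counts exceeds chance was not tested.

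Cyp4b1 had the smallest adjusted p for the difference. At ZT0 it stood at 7.56, 6.54 and 5.59 FPKM in day-fed mice, against 0.728, 1.18 and 1.02 FPKM in night-fed mice. At ZT20 the order was turned round, with 1.496, 2.22 and 2.75 FPKM in day-fed mice, against 9.09, 10.6 and 7.65 FPKM in night-fed mice. Neither time had overlapping groups, and the rhythm difference was 2.17 ± 0.32 (adjusted p = 5.73e-06, limma). The amplitude was 0.80 ± 0.23 with a peak at ZT0.94 in day-fed mice and 1.497 ± 0.23 with a peak at ZT15.7 in night-fed mice. With the length score the rhythm in day-fed mice did not pass (adjusted p = 0.0514, limma).

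In night-fed mice the 4 Cyp2c genes of the minus strand peaked within ZT13.2 to ZT13.6. The amplitude was 0.98 ± 0.12 for Cyp2c68, 0.78 ± 0.12 for Cyp2c40, 0.44 ± 0.07 for Cyp2c67 and 0.89 ± 0.14 for Cyp2c69, and these are the genes that can share reads. The plus-strand gene Cyp2c55 peaked at ZT16.3 (0.88 ± 0.20). None of these 5 genes was called rhythmic in day-fed mice. Cyp2c68 had 37.8, 33.8 and 19.7 FPKM at ZT4 in day-fed mice, against 12.0, 22.1 and 7.52 FPKM in night-fed mice. At ZT12 it had 29.9, 34.4 and 33.8 FPKM in day-fed mice, against 51.9, 51.9 and 39.1 FPKM in night-fed mice. The groups overlapped at ZT4 and not at ZT12, and the rhythm difference was 1.03 ± 0.17 (adjusted p = 5.6e-05, limma).

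Cyp2c55 had 50.2, 94.3 and 86.8 FPKM at ZT20 in day-fed mice, against 275, 237 and 196 FPKM in night-fed mice. All night-fed libraries lay above all day-fed ones at that time, and the rhythm difference was 1.08 ± 0.28. That call was not kept with the length score (adjusted p = 0.119, limma) or with FPKM as deposited (adjusted p = 0.0618, limma).

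Cyp3a13 had 33.3, 26.1 and 30.7 FPKM at ZT0 in day-fed mice, against 19.9, 17.4 and 20.8 FPKM in night-fed mice. At ZT12 it had 22.5, 27.7 and 27.9 FPKM in day-fed mice, against 41.8, 38.7 and 39.3 FPKM in night-fed mice. The groups did not overlap at either time and stood in opposite order, with a rhythm difference of 0.67 ± 0.14 (adjusted p = 8.8e-04, limma). The differences were 0.52 ± 0.11 for Cyp4f14, not called with FPKM as deposited (adjusted p = 0.0953, limma), and 0.41 ± 0.09 for Cyp2j9. Cyp2f2 was rhythmic in night-fed mice (0.63 ± 0.12, peak ZT14.7).

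**Figure D3:**
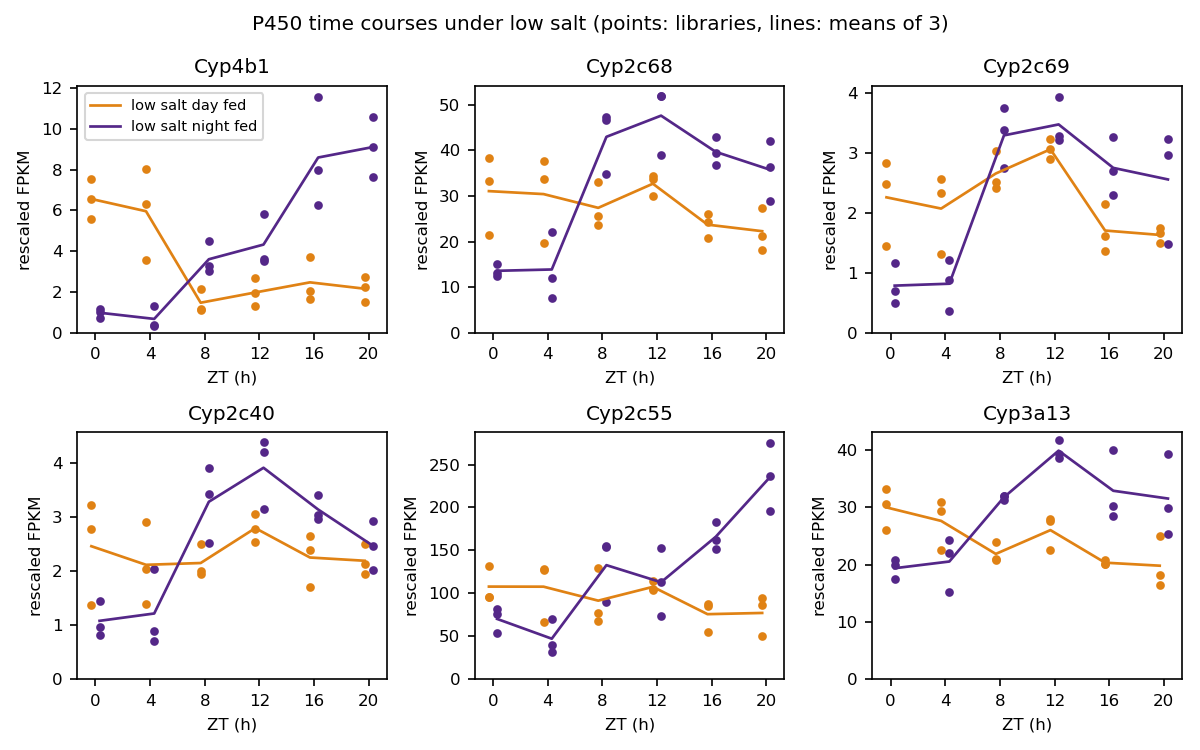
Levels of Cyp4b1, Cyp2c68, Cyp2c69, Cyp2c40, Cyp2c55 and Cyp3a13 (rescaled FPKM) at the 6 zeitgeber times under low salt, in day-fed and night-fed mice. Points are libraries and lines are the means of 3. Cyp4b1 at ZT20 is 1.496 to 2.75 in day-fed and 7.65 to 10.6 in night-fed mice, and Cyp2c55 at ZT20 is 50.2 to 94.3 in day-fed and 196 to 275 in night-fed mice.

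As a point of reference, the PAR bZIP factor Dbp peaked at ZT2.69 in low-salt day-fed mice and at ZT12.3 in low-salt night-fed mice, and Arntl, the gene of Bmal1, peaked at ZT13.3 in day-fed and at ZT23.9 in night-fed mice. Of 8 tested clock output genes, all 8 differed in rhythm between these groups, against 37% of all tested genes. Cyp4b1 was rhythmic in both, with its peaks at ZT0.94 by day and ZT15.7 at night. Cyp27a1 was rhythmic in day-fed mice (0.42 ± 0.12, peak ZT17.2), a call not kept with the length score (adjusted p = 0.312, limma).

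**Figure D4:**
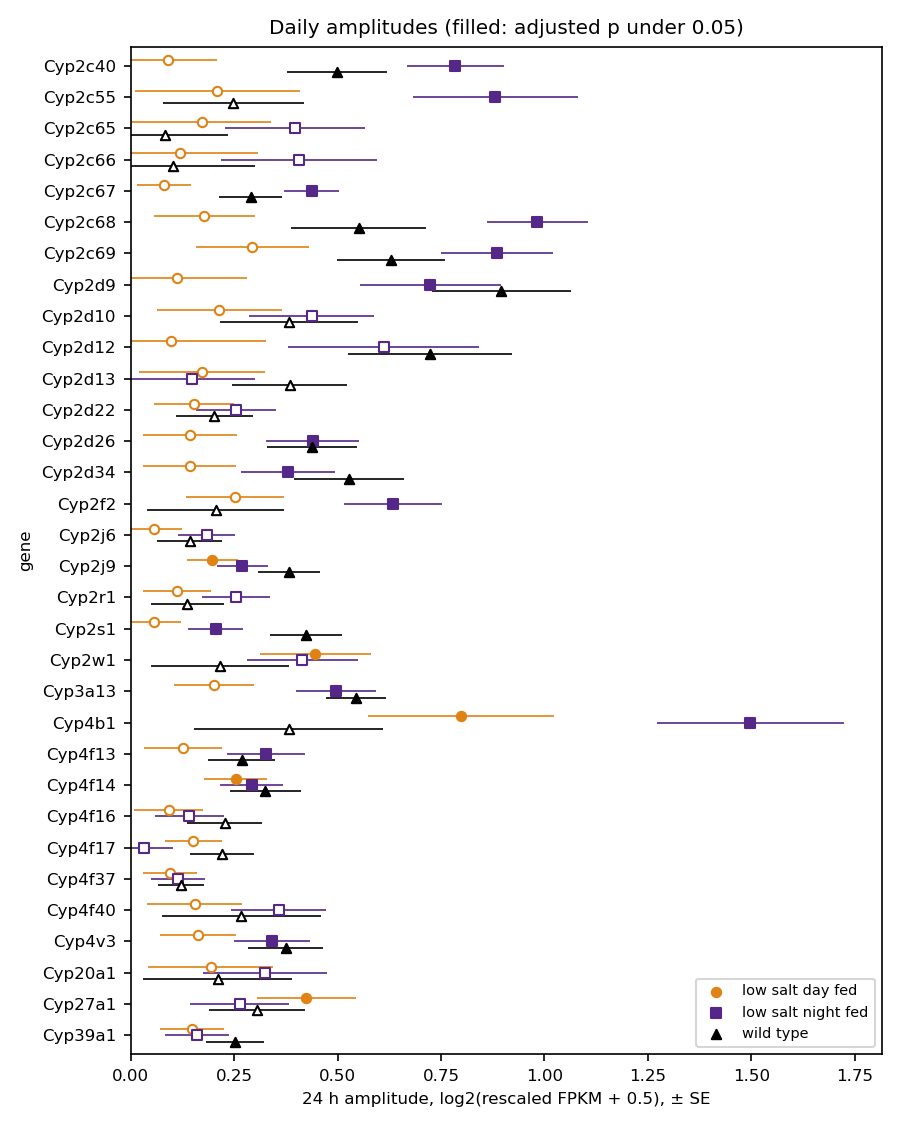
Daily amplitude (log2, mean to peak) of each of the 32 tested P450 genes in low-salt day-fed, low-salt night-fed and wild-type mice, with standard errors. Filled points are the genes called rhythmic, 15 in wild type, 16 in low-salt night-fed and 5 in low-salt day-fed mice.

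Under high salt 11 of the 32 members were higher in day-fed than in night-fed mice, against 14.3% of all tested genes, and 3 were lower, against 12.4%. The most significant were Cyp4f14, with 52.6 ± 9.49 FPKM in high-salt day-fed and 37.6 ± 10.4 FPKM in high-salt night-fed mice (SD, n = 18 each; 0.51 ± 0.08, adjusted p = 1.16e-06, limma), and Cyp2j6, an arachidonic acid epoxygenase. Cyp2j6 had 12.8, 16.7 and 20.2 FPKM (lowest, median, highest) in day-fed mice, against 7.72, 11.9 and 18.3 FPKM in night-fed mice (0.45 ± 0.07). The ranges of both genes overlapped. Also higher were Cyp4f40 (0.55 ± 0.11), Cyp2d26 (0.41 ± 0.11), Cyp2w1 (0.45 ± 0.13), Cyp2j9 (0.20 ± 0.06) and Cyp3a13 (0.30 ± 0.10), and lower were Cyp2c67 (-0.26 ± 0.07) and Cyp2c40 (-0.37 ± 0.12). Of the 18 high-salt night-fed libraries 5 had a scale factor under 0.6, all at ZT8 and ZT12, and without these 5 the calls left were Cyp4f14, Cyp2j6 and Cyp4f40. With the length score 5 members passed, and with FPKM as deposited 24, all higher, while the median over all genes moved by 0.38.

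In high-salt day-fed mice 10 of the 32 members were rhythmic, against 30.4% of all tested genes, a share near that background. The count was 6 without the first high-salt day-fed replicate at ZT0. Cyp27a1 had 7.94, 7.16 and 8.16 FPKM at ZT12 and 2.11, 2.34 and 2.65 FPKM at ZT4 in those mice, with no overlap between the times (0.64 ± 0.12, peak ZT14.3). Cyp4f13 (0.48, ZT13.8), Cyp2s1 (0.32, ZT13.1) and Cyp4b1 (0.97, ZT9.05) were also called, and Cyp2s1 was not with FPKM as deposited (adjusted p = 0.153, limma). In high-salt night-fed mice 20 of the 32 were rhythmic, against 55.5% of all tested genes, a share near that background. When the 5 libraries with a scale factor under 0.6 were dropped, 7 were called, and the share of all tested genes in that fit is not given here. Cyp4f40 had 21.9, 30.8 and 31.6 FPKM at ZT20 and 7.04, 4.53 and 8.01 FPKM at ZT8, without overlap (0.97 ± 0.11, peak ZT21.8). Those 5 are the 3 libraries at ZT8 and 2 of the 3 at ZT12. The rhythm differed between day and night feeding in 15 members, against 31.6% of all tested genes, and in 4 without those libraries. The named ones were Cyp2d34 (0.93), Cyp2w1 (1.03), Cyp4f40 (0.86), Cyp4f14 (0.51) and Cyp4f13 (0.63). Over the settings tried, the highest adjusted p was 0.0619 for Cyp4f40 and 0.193 for Cyp4f14 (limma), so these calls were not always kept. Cyp2d34, Cyp2w1, Cyp4f13 and also Cyp27a1 (0.76) stayed under 0.05.

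Among night-fed mice 11 members were lower with high than with low salt, against 18.9% of all tested genes, and 1 was higher, against 15% (33.9% in either direction). Cyp3a13 had 10.8, 17.9 and 38.3 FPKM (lowest, median, highest) in high-salt night-fed mice, against 15.3, 30.1 and 41.8 FPKM in low-salt night-fed mice (-0.63 ± 0.10, adjusted p = 1.69e-06, limma). Cyp27a1 had 1.71, 4.15 and 8.78 FPKM in high-salt night-fed mice, against 4.20, 6.34 and 11.4 FPKM in low-salt night-fed mice (-0.70 ± 0.12, adjusted p = 1.18e-05, limma). Both genes overlapped and were lower at all 6 times. Cyp4v3 (-0.52), Cyp2w1 (-0.73), Cyp4f40 (-0.58), Cyp2f2 (-0.51) and Cyp4f17 (-0.29) were lower too, and Cyp2c69 was the 1 that was higher (0.57 ± 0.14). When the libraries of low scale factor were dropped 7 members passed, Cyp4f17 not among them (adjusted p = 0.123, limma), and with FPKM as deposited 30, all lower, Cyp2c69 no longer among the calls (adjusted p = 0.245, limma), while the median over all genes moved by -0.41.

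The rhythm differed between high and low salt at night in 12 members, against 11.7% of all tested genes. With cosine and sine terms in place of time means, a setting chosen after seeing the data, the count was 5, and dropping the 5 low-scale libraries from that fit left 0. It was 7, 7, 5, 7, 5 and 4 without, in turn, replicate 2 at ZT0 or replicate 3 at ZT12 of the low-salt mice, or replicate 2 or 3 at ZT0 or replicate 2 or 3 at ZT12 of the high-salt mice. The member with the smallest adjusted p was Cyp2c68 (0.77 ± 0.17, adjusted p = 0.00793, limma).

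Among day-fed mice 4 members were higher with high than with low salt, against 7.7% of all tested genes, and 4 were lower, against 6.91%. Cyp27a1 had 2.11, 3.53 and 8.16 FPKM in high-salt day-fed mice, against 3.21, 7.41 and 11.2 FPKM in low-salt day-fed mice (-0.69 ± 0.12, adjusted p = 2.99e-05, limma). Together with the night-fed groups, this sterol hydroxylase was lower with high salt at both mealtimes, at all 6 times of day. Cyp2f2 was lower at both mealtimes as well, by day with 4.40 ± 1.37 FPKM in high-salt and 6.58 ± 1.92 FPKM in low-salt mice (SD, n = 18 each; -0.53 ± 0.12), and Cyp2d13 was lower by day (-0.66 ± 0.15). Cyp2s1, the remaining lower call, was lost when any 1 of 22 libraries was left out.

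The 4 members higher with high salt by day were Cyp2c65, Cyp2c66, Cyp2j6 and Cyp4f14. Cyp2c65 had 24.7, 66.3 and 119.9 FPKM in high-salt day-fed mice, against 23.8, 34.3 and 54.5 FPKM in low-salt day-fed mice (0.86 ± 0.17, adjusted p = 1.82e-04, limma). Its neighbour Cyp2c66, whose promoter window is shown beside it above, had 0.894, 3.98 and 6.65 FPKM in high-salt day-fed mice, against 1.21, 1.63 and 2.92 FPKM in low-salt day-fed mice (0.83 ± 0.19). The ranges overlapped in both genes, and both were higher at all 6 times. Cyp2j6 differed by 0.39 ± 0.07 and Cyp4f14 by 0.41 ± 0.08. With FPKM as deposited 3 members were higher and 5 lower, and Cyp2j6 was not called (adjusted p = 0.0579, limma).

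The rhythm differed between high and low salt by day in 4 of the 32 members, against 11.2% of all tested genes, a share near that background. It differed in 2 without the first low-salt replicate at ZT0 or at ZT12 or the first high-salt replicate at ZT0. Cyp4b1 had 0.625, 0.751 and 1.51 FPKM at ZT0 in high-salt day-fed mice, against 7.56, 6.54 and 5.59 FPKM in low-salt day-fed mice. Those groups did not overlap, and the rhythm difference was 1.54 ± 0.32 (adjusted p = 0.00265, limma). Cyp4f13 differed by 0.54 ± 0.13. Cyp2s1 lost its call without any 1 of 4 libraries, and Cyp4f17 without any 1 of 19.

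The salt difference itself differed between the mealtimes in 10 members, all with a higher value by day than at night, against 10.7% of all tested genes in that direction and 8.26% in the other. The value is the high minus low salt difference by day less that at night. It was 0.63 ± 0.10 for Cyp2j6 (adjusted p = 2.46e-06, limma), 0.64 ± 0.11 for Cyp4f14 (adjusted p = 1.31e-05, limma), 1.003 ± 0.24 for Cyp2c65, 1.03 ± 0.27 for Cyp2c66, 0.67 ± 0.16 for Cyp4f40 and 0.54 ± 0.14 for Cyp3a13. The set held genes higher with salt by day, such as Cyp2c65, and genes lower with salt at night, such as Cyp3a13. Without the 5 libraries of low scale factor 2 were left, Cyp2j6 (0.52) and Cyp4f14 (0.50), and without the first high-salt day-fed replicate at ZT16 there were 16. With FPKM as deposited 20 members passed, all higher, and with quantile normalization 10 were higher and 3 lower.

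**Figure D5:**
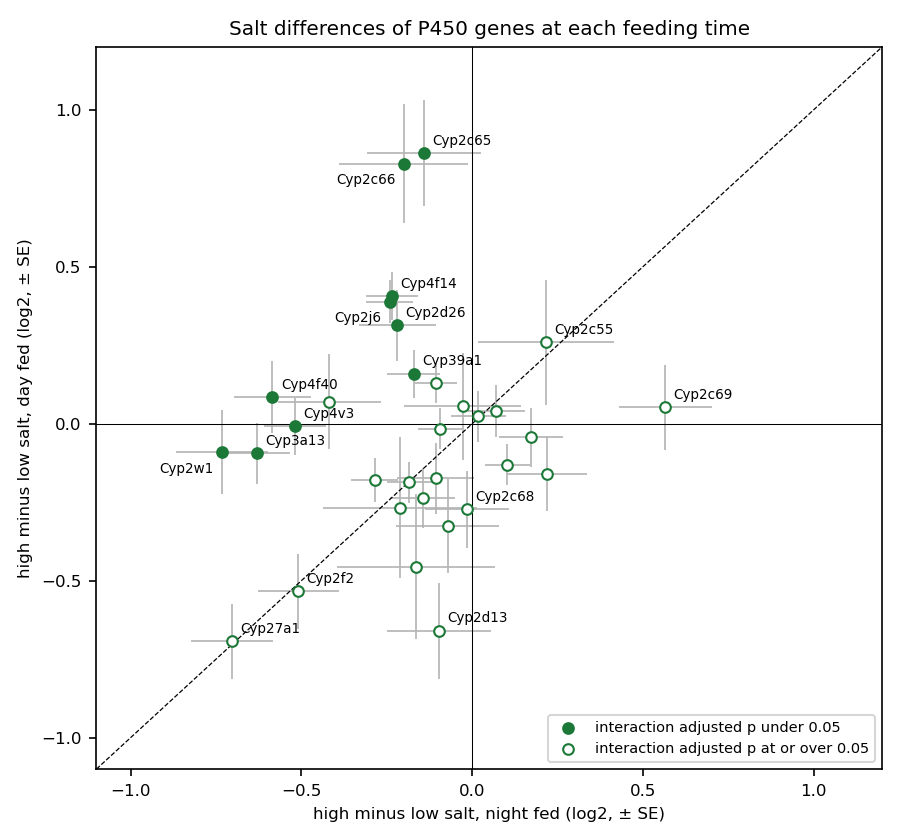
High minus low salt log2 level difference of each of the 32 tested P450 genes by day (vertical axis) and at night (horizontal axis), with standard errors. Filled points are the 10 genes with an interaction call, all above the diagonal, and Cyp27a1 lies near the diagonal at -0.69 by day and -0.70 at night.

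The summed distal Hox genes moved with salt too, at 55.7 to 172 FPKM in high-salt day-fed, 77.8 to 221 in high-salt night-fed, 131 to 278 in low-salt day-fed and 118 to 259.7 FPKM in low-salt night-fed mice, and 3 of the 4 genes fell with high salt at each mealtime. Of all tested genes 6.91% were lower with high salt by day and 18.9% at night. Other markers moved with the comparisons that gave P450 calls. For high salt by day against night, 3 of 5 epithelium markers, 2 of 5 surface colonocyte markers and 2 of 3 tested immune markers were higher and none lower, and for the interaction the counts were again 3 of 5, 2 of 5 and 2 of 3 higher and none lower. Of all tested genes 14.3% were higher and 12.4% lower for high salt by day against night. For the interaction 10.7% were higher and 8.26% lower. The median of the 3 immune markers was 1.04 on the log2 scale for the interaction. The surface colonocyte markers summed to 1129 to 2236 FPKM (median 1838) in high-salt day-fed, 832 to 2442 (median 1332) in high-salt night-fed, 1122 to 2518 (median 1596) in low-salt day-fed and 1154 to 2066 FPKM (median 1562) in low-salt night-fed mice. The immune markers stayed low, at sums of 1.06 to 9.02 FPKM over the 4 groups, with medians of 4.00 in high-salt day-fed and 2.52 FPKM in high-salt night-fed mice. The part of all these markers in the salt and mealtime differences was not tested.

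Of 11 redox partners and heme genes listed and tested, 3 were higher and 7 lower in Bmal1 knock out than in wild type, where 30.2% of all tested genes were higher and 49.2% lower. In MR knock out 1 was higher and 2 were lower, where 24.1% of all tested genes were higher and 41.5% lower. Por, the oxidoreductase that feeds electrons to microsomal P450 enzymes, had 14.8, 20.0 and 36.7 FPKM (lowest, median, highest) in Bmal1 knock out, against 35.2, 48.1 and 64.8 FPKM in wild type. The groups overlapped little, and the difference was -1.14 ± 0.07 (adjusted p = 2.68e-16, limma), against -0.14 ± 0.07 in MR knock out (adjusted p = 0.0723, limma). Alas1, the first enzyme of heme synthesis, differed by -0.33 ± 0.07 in Bmal1 knock out.

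Of 15 listed regulators of P450 genes, 14 were tested, and 2 were higher and 11 lower in Bmal1 knock out, where 30.2% of all tested genes were higher and 49.2% lower. In MR knock out 1 was higher and 6 lower, where 24.1% of all tested genes were higher and 41.5% lower, so the share of lower regulators there lies near the background. In Bmal1 knock out the differences were -0.77 ± 0.09 for the aryl hydrocarbon receptor Ahr, -0.83 ± 0.11 for the xenobiotic receptor Nr1i3, -0.91 ± 0.14 for the fatty acid receptor Ppara and -0.87 ± 0.15 for Hnf4g. In MR knock out they were -0.52 for Ahr, -0.17 for Nr1i3 (adjusted p = 0.19, limma), -0.39 for Ppara and -0.70 for Hnf4g. Dbp differed by -1.69 ± 0.14 in level in Bmal1 knock out and had no called rhythm there (amplitude 0.22, adjusted p = 0.334, limma), against an amplitude of 2.78 in wild type.

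Arntl had 4.42 ± 0.995 FPKM in Bmal1 knock out and 9.35 ± 6.31 FPKM in wild type (SD, n = 18 each), with every Bmal1 knock out library (2.88 to 6.29) inside the wild-type range (2.26 to 19.2), and its rhythm was not called in Bmal1 knock out (0.25, adjusted p = 0.0564, limma), against 1.43 in wild type. Nr3c2, the gene of MR, had 1.66 to 5.34 FPKM in MR knock out, against 7.07 to 23.3 FPKM in wild type, with no overlap. The sources used here do not say which part of either gene was deleted. Nr3c2 also had 3.23 to 14.0 FPKM in Bmal1 knock out. The 5 epithelial markers were high in every condition, and the 5 pancreas markers summed to at most 0.597 FPKM in any library. The depth of each library is not given, and an estimate from what 1 read is worth in 457 low genes put the median per condition between 24.5 and 30.6 M (mega) mapped fragments.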

How the data were processed

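RNA of mouse colon was sequenced in 126 libraries. Per the labels' protocols, TRIzol extracts were selected for poly(A) RNA and made into stranded TruSeq libraries. TopHat2 2.1.1, Cufflinks 2.2.1 and build mm10 are named in the submitters' processing notes. The authors deposited FPKM in 7 tables, one per condition, and the sources used here name neither the annotation nor the Cufflinks options. Comparisons of levels between conditions cross these tables. The total reads per library are not given in those sources, so no counting interval was computed.

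Values were divided by a scale factor per library (median of ratios to the geometric mean of 6966 genes) and analysed as log2 of FPKM plus 0.5. Rows whose mean reached 0.5 in 1 or more conditions (12323) were tested with limma 3.58.1 in R 4.3.3 (lmFit, eBayes with trend and robust options) and 1 mean per condition and time, over 54 libraries for genotype (36 residual degrees of freedom) and 72 for feeding (48). A level difference is averaged over the 6 times. A rhythm is the cosine and sine contrast of 24 h, and a rhythm difference is the same between conditions, both tested with an F test. Its size is the amplitude of the difference curve. A ± with no label is a standard error. The p-values of level differences are 2-sided, and the F tests have no direction. Adjusted p-values use the Benjamini-Hochberg adjustment over all tested rows, with 0.05 as the threshold. The tests were checked on simulated data with independent normal noise. Those data held no libraries of low scale factor and no lean with transcript length, so the check does not cover these features. Fits without libraries of a scale factor under 0.6 used cosine and sine terms in place of time means, since whole times were left out.

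The members and the lists of redox partners, regulators, clock output genes and markers were chosen with earlier results of these data known. In the Results, members named with test values were drawn from the 8 called members with the smallest adjusted p for each level comparison, 6 for each rhythm and 5 for each rhythm difference. Cyp2c55, Cyp2s1, Cyp3a13, Cyp4b1, Cyp4f14 and Cyp27a1 were added to these. For some comparisons fewer of them are given. Coordinates are from GENCODE vM21 and promoters from RefSeq, both on GRCm38. No column was left unused.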

Additional observations from a re-analysis of the deposited data

Results flagged for a closer look

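In 10 genes the difference between high and low salt differed between day-fed and night-fed mice by a limma test of that difference, with adjusted p under 0.05. The values, high minus low salt by day less the same at night on the log2 scale, were 0.6301 for Cyp2j6, 0.6404 for Cyp4f14, 1.003 for Cyp2c65, 0.6694 for Cyp4f40 and 0.5121 for Cyp4v3. They were 0.5356 for Cyp3a13, 1.029 for Cyp2c66, 0.6417 for Cyp2w1, 0.5334 for Cyp2d26 and 0.3312 for Cyp39a1. Of the 18 high-salt night-fed libraries 5 had a scale factor under 0.6, and without them Cyp2j6 (0.5169) and Cyp4f14 (0.5001) were the calls left. The part of these libraries in the other 8 was not tested further.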

How the results depend on the processing

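Of 20 counts of called members, 5 stayed within 1.5 times under every setting: level in both knock outs and in high against low salt by day, the rhythm difference of low salt day minus night, and rhythm in low-salt night-fed mice. Except where printed, the share of all tested genes under a changed setting is not given, here or in the Results. A changed count is therefore not read as particular to the members. Without the 14 libraries of low scale factor, counts went to 3 (level, high salt day minus night), 7 (level, high minus low salt at night), 2 (level interaction), 1 (rhythm difference, Bmal1 knock out), 4 (rhythm difference, high salt day minus night), 0 (rhythm difference, high minus low salt at night), 2 (rhythm, Bmal1 knock out) and 7 (rhythm, high salt night). With FPKM as deposited the first 7 of these counts were 24, 30, 20, 22, 27, 24 and 31, and the rhythm count was 0 in MR knock out and 3 in wild type. A length score as a covariate gave 5 for the level of high salt day minus night and 3 for rhythm in low-salt day-fed mice. Without a filter the rhythm difference of Bmal1 knock out had 6 calls. Cosine and sine terms over all libraries, a setting chosen after seeing the data, gave 5 for the rhythm difference of high minus low salt at night, which is the like-for-like base of the 0 above, and 7 for that of Bmal1 knock out.

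Leaving out each library in turn gave 0 to 1 for level, low salt day minus night; 10 to 16 for the level interaction; 6 to 14 for the rhythm difference of Bmal1 knock out and 0 to 1 for that of MR knock out. It gave 2 to 5 for the rhythm difference of high minus low salt by day, 4 to 15 for that at night, 3 to 7 for rhythm in MR knock out and 6 to 14 in high-salt day-fed mice. The sign turned for Cyp2c55 in MR knock out (-0.1234 as deposited, -0.3155 with quantile normalization, -0.0314 to 0.2098 without 1 library), and with the length score for Cyp2s1 in Bmal1 knock out (0.0117) and Cyp3a13 in MR knock out (0.0086). None of these 3 differences passed the threshold. The cause of these changes was not tested.

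The deviations of libraries with the same replicate number had correlations of -0.566 to 0.5634, with medians per comparison of -0.1961 to 0.04489. With 3 libraries per condition and time, this check cannot show whether the numbers pair libraries. With a replicate block the level counts were 28 for Bmal1 knock out, 21 for MR knock out, 15 for high salt day minus night, 8 for high minus low salt by day, 12 at night, 0 for low salt day minus night and 11 for the interaction.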
